A study of Mus musculus with 9 samples.

Results

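The genes of triglyceride synthesis from glycerol 3-phosphate were examined in 9 clones derived from the mouse embryonic stem cell line E14. The 8 genes were chosen by name as the enzymes of the pathway, Gpat3, Gpat4, Agpat2, Lpin1, Lpin2, Lpin3, Dgat1 and Dgat2, and not by their values. They are 8 of the 35580 genes measured, and all 8 were among the 13378 genes tested, those that reached 1 CPM as a mean over the clones. CPM is the estimated count of a gene scaled to a common library total, and it serves here to compare 1 gene between clones. TPM corrects for transcript length as well and serves to set genes side by side.

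The clones came from the bulk line, were picked because their lipid droplets differed in size, and were expanded in 1 culture condition, a serum medium with leukaemia inhibitory factor on gelatin. The labels used here do not state the droplet size of any clone, no genotype or treatment separates the clones, and each clone is 1 sample. The clones, numbered 1, 4, 6, 8, 10, 11, 13, 14 and 17 in the labels, therefore form no groups, and their values are given clone by clone. They are not replicates of each other.

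Triglyceride is built in the membrane of the endoplasmic reticulum by adding fatty acids to a glycerol backbone step by step. Glycerol-3-phosphate acyltransferases add the first fatty acid, acylglycerolphosphate acyltransferases add the next and give phosphatidate, lipins remove the phosphate to give diacylglycerol, and diacylglycerol acyltransferases add the last fatty acid. The product collects in lipid droplets, and the intermediates are also the starting material of membrane phospholipids.

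Total estimated counts ran from 10783718 in clone 1 to 14309662 in clone 6, with a median of 13802506. A gene without a count could still have a level of up to 3 counts, which is 0.209 to 0.293 CPM depending on the clone. Limits and intervals below are at the 95% level and cover counting error only. The 2 clones of a fold were chosen as the lowest and the highest, and its interval does not allow for that choice. An interval that leaves out equality is therefore no test of a difference. Spearman's rho between 2 clones, over genes, was 0.962 to 0.994. By this measure clones 8, 14 and 17 lay together, clones 10 and 11 lay together, and clones 1, 4, 6 and 13 formed the rest. Because the clones lay in separate sets, no correlation over clones was computed. The labelled cell type was checked first. The pluripotency factors were high in every clone, with Pou5f1 at 851 to 1289 CPM, Sox2 at 236 to 301, Nanog at 249 to 537 and Zfp42 at 488 to 873. The 7 listed summed to 2950 and 2661 CPM in clones 10 and 11 against 3936 to 4241 elsewhere. Tfcp2l1 was at 346 and 385 and Esrrb at 382 and 369 in those 2 clones, their lowest levels. Clone 13 was below clone 10 for Zfp42, and clones 4 and 14 were below clone 11 for Klf4. The 6 adipocyte markers were each under 1 CPM in every clone and summed to 0.293 to 1.07 CPM, and Lep, the adipocyte hormone leptin, had no count. Of the 5 markers of hepatocytes or visceral endoderm, 4 were under 1 CPM in every clone. Several lists of markers of other lineages or stages were higher in clones 10 and 11. The 7 fibroblast markers summed to 54.0 and 63.4 CPM there against 6.0 to 20.2 elsewhere, but most of this was Col1a1, at 33.4 and 42.5. Col1a2 and Col3a1 were also higher. Thy1 was not, at 7.39 and 7.54 beside 10.4 in clone 4, and Dcn, Lum and Postn were under 1 CPM everywhere. The 4 mesoderm markers summed to 24.2 and 48.5 against 2.3 to 6.48. The 6 formative and primed markers summed to 457 and 541 against 234 to 404, mostly Dnmt3b, at 373 and 460. Fgf5, Otx2 and Pou3f1 were also highest there. Lef1, at 8.35 and 9.97, and Zic2, at 19.0 and 13.7, were not, beside 11.3 and 24.3 in clone 1. The 6 trophoblast markers summed to 457 and 477 CPM against 32.3 to 111, but most of this was Krt8, at 278 in both, and Krt18, at 167 and 182, keratins of many simple epithelia. Cdx2 was also highest in clones 10 and 11, at 3.11 and 5.66 CPM beside 3.05 in clone 4. Elf5 was highest in clone 13, at 1.58 CPM from 21 counts, against 0.734 in clone 10 and 0.399 in clone 11. Eomes was at 6.74 and 7.87 beside 7.80 in clone 4, and Ascl2 was at 2.03 and 3.35 beside 4.19 in clone 4. The sum of the 6 primitive endoderm markers did not set clones 10 and 11 apart, with 7.60 and 10.5 CPM against 4.12 to 9.84. Its members went different ways. Dab2 was highest in clones 10 and 11, at 3.84 and 7.83 beside 3.42 in clone 6. Gata4 was at 2.21, 2.48 and 3.09 in clones 8, 14 and 17 and at most 1.19 elsewhere, and Sox7 was highest in clone 17, at 3.02. The part of such cells in the values below was not tested, and in bulk RNA a different number of cells of a type and a different amount of RNA per cell cannot be told apart.

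Among the 8 enzymes, expression was concentrated in a few. Other enzymes of the same steps are outside this order. The median CPM of Agpat5, Agpat1, Agpat4 and Agpat3 was 75.5, 48.0, 29.5 and 23.7, beside 21.1 for Agpat2, without correction for length. By median TPM over the clones the order was Gpat4 at 41.4, Agpat2 at 24.9, Dgat1 at 15.3, Lpin1 at 8.24, Lpin3 at 7.21, Dgat2 at 5.78, Gpat3 at 5.37 and Lpin2 at 5.35. Gpat4 stood above Agpat2 in all 9 clones without overlap, its lowest clone being at 28.1 TPM and the highest clone of Agpat2 at 28.0. Every other pair of neighbours overlapped in range. Within clones, Agpat2 exceeded Dgat1 in 8 of 9, with clone 14 the exception, and Dgat1 exceeded Lpin1, and Lpin1 exceeded Lpin3, in 9 of 9. The places from Lpin3 down to Lpin2 were exchanged between clones. Lpin3 exceeded Dgat2 in 6 clones, Dgat2 exceeded Gpat3 in 6, and Gpat3 exceeded Lpin2 in 5. The 8 genes summed to 91.2 TPM in clone 4 and to 121 in clone 11. These orders hold for TPM summed over all transcripts of a gene, including those without a reading frame. Gpat4-201 held 48.4 to 65.3% of the TPM of its gene, and Dgat1-201 held 50.2 to 78.6%. In clone 1, Gpat4-201 held 60.1% of 28.1 TPM and Agpat2-201 held 95.3% of 24.9, so these coding transcripts were in the opposite order.

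Dgat2 and Gpat3 varied most over the clones, and Dgat1 and Lpin2 varied least. A range is the highest minus the lowest clone in log2 CPM. Of the 8 enzymes, 2 had a range of 1 or more, against 35.3% of the 13378 genes, and 1 of 8 had a range of 2 or more, against 7.92%. The median range of the 8 was 0.64, beside 0.78 over all genes tested and 0.77 over those coding for protein. A chi-square test of the 9 counts of each gene against counting noise, with Benjamini-Hochberg adjustment over all genes tested, called 6 of the 8 enzymes, against 89.4% of all genes. That test compares these libraries and says nothing of a condition. Each of the 3 counts lay within 2 genes of the number that the share among all genes would give. Clone 1, the shallowest library, held the highest level in 5 of the 8 enzymes, and the part of depth in this was not tested.

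**Figure D1:**
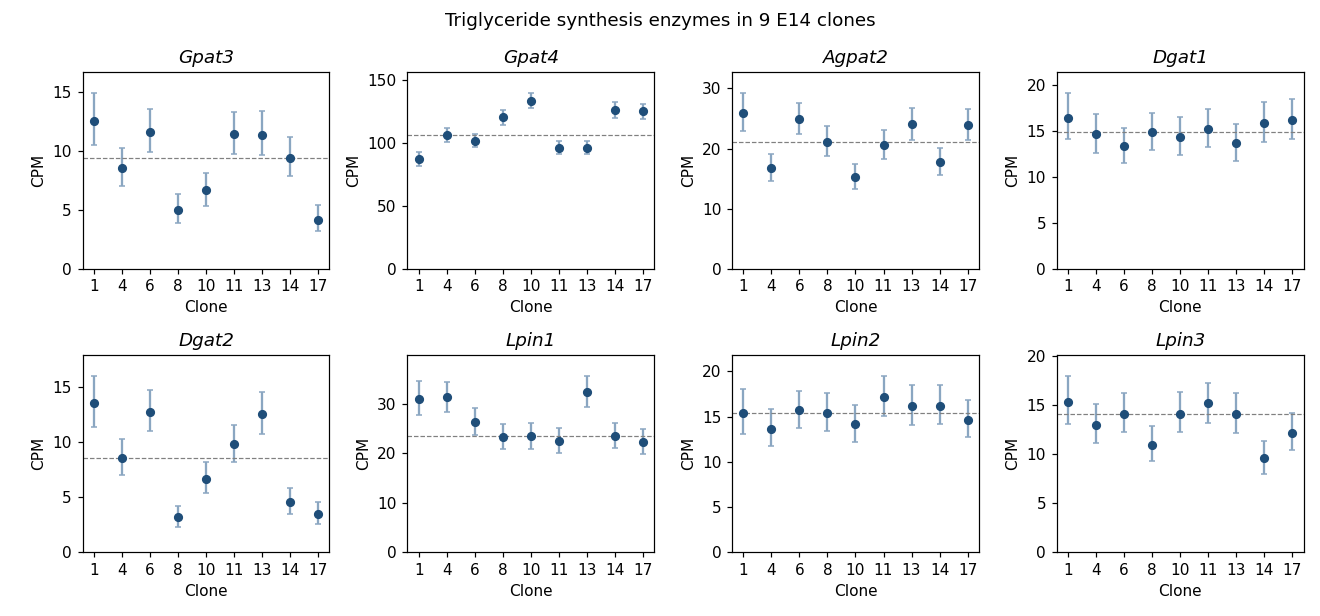
Level of the 8 enzymes in CPM (vertical axes, from 0) in each of the 9 clones (horizontal axes). Points are clones, bars are 95% Poisson intervals that cover counting error only, and dashed lines are medians over clones. Dgat2 is lowest in clones 8, 17 and 14, while the bars of most clones overlap for Dgat1 and Lpin2.

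**Figure D2:**
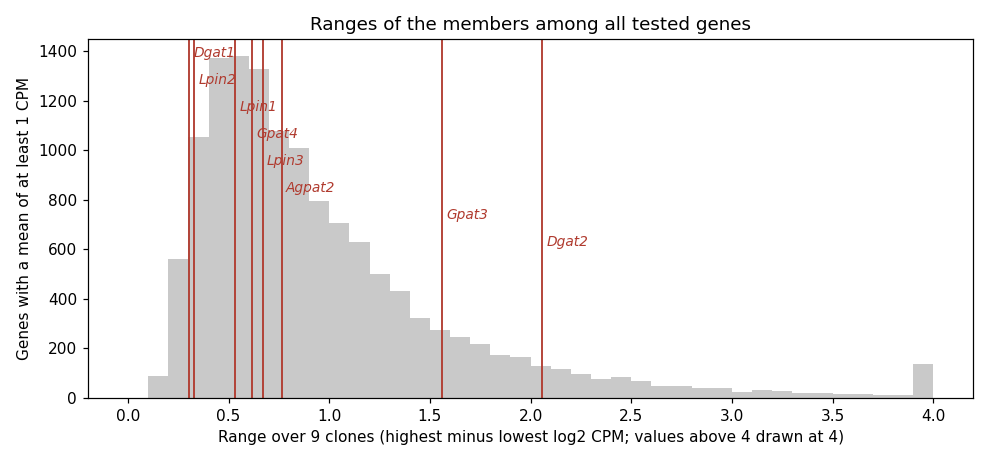
Ranges over the 9 clones, as highest minus lowest log2 CPM, of the 13378 genes tested (grey bars, number of genes) and of the 8 enzymes (marked lines). Dgat2 at 2.06 and Gpat3 at 1.56 lie to the right, and Dgat1 at 0.30 and Lpin2 at 0.33 lie at the left end.

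Gpat3 and Gpat4 are the acyltransferases of the first step that lie in the endoplasmic reticulum, and Gpat4 was the higher of them in every clone. The mitochondrial enzymes of that step, Gpam and Gpat2, are described with the other pathway genes. Gpat4 (chromosome 8, 23171265 to 23208346, minus strand, GRCm38) measured 86.9 CPM in clone 1, 106 in clone 4, 102 in clone 6, 120 in clone 8, 133 in clone 10, 96.1 in clone 11, 96.1 in clone 13, 126 in clone 14 and 125 in clone 17. Clones 8, 10, 14 and 17 were the 4 highest. From clone 1 to clone 10 the level differed 1.53-fold (1.42 to 1.66), beyond counting noise by the chi-square test (adjusted p = 3.76e-48). Without clone 1, the shallowest library, the range fell from 0.62 to 0.47 log2 units. On the TPM scale the same 2 clones differed 1.81-fold. The coding transcript Gpat4-201 held 77.3 to 86.0% of the counts, and a transcript with a retained intron held 11.9 to 20.5%, the most in clone 10.

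Gpat4 moved with the chromosome it lies on. As deviations from the median over clones, the 715 other tested genes of chromosome 8 had a median of 0.28 log2 units in clone 8, 0.26 in clone 10, 0.32 in clone 14 and 0.32 in clone 17. In the other 5 clones that median lay between -0.21 and -0.01. The deviations of Gpat4 itself were 0.18, 0.33, 0.25 and 0.24 in clones 8, 10, 14 and 17, and between -0.29 and 0 in the other 5. Subtracting the chromosome's median left Gpat4 with a range of 0.30 in place of 0.62. With the 58 tested genes within 5 Mb as the reference it was 0.41. The copy number of the chromosome was not measured, and its part in the level of Gpat4 was not tested. For the other 7 enzymes the chromosome moved little. Subtracting its median left Dgat2 at 2.04 in place of 2.06 and Gpat3 at 1.56.

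**Figure D3:**
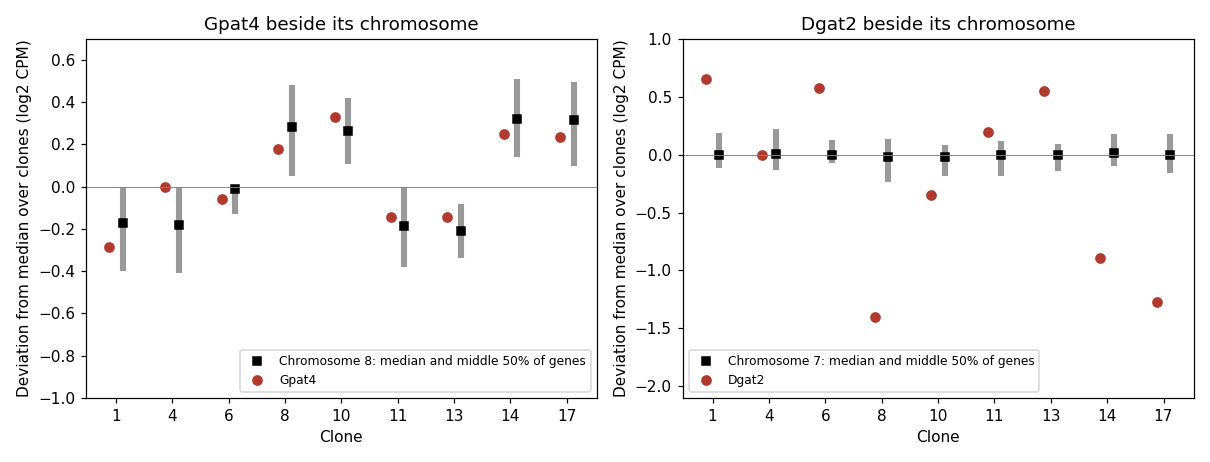
Deviation from the median over clones, in log2 units (vertical axis), of Gpat4 and of Dgat2 (coloured points) beside the median of the other tested genes of the same chromosome (black squares, with grey bars from the lower to the upper quartile of genes) in each clone. Gpat4 and chromosome 8 are both above 0 in clones 8, 10, 14 and 17, while chromosome 7 stays near 0 in clones where Dgat2 is low.

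Gpat3 (chromosome 5, 100845713 to 100899102, plus strand), which catalyses the same reaction, measured 12.6 CPM in clone 1, 8.54 in clone 4, 11.6 in clone 6, 5.00 in clone 8, 6.66 in clone 10, 11.5 in clone 11, 11.4 in clone 13, 9.40 in clone 14 and 4.17 in clone 17. Clones 17 and 8 were lowest, while clone 14, which lay with them over all genes, stood between clones 4 and 13. The fold from clone 17 to clone 1 was 3.02 (2.20 to 4.19) and the adjusted p of the chi-square test was 8.91e-21. Of all genes tested, 14.6% had a larger range. Without clones 8, 14 and 17 the range fell from 1.56 to 0.88. As log2(TPM + 1) it was 1.07, and the lowest and highest TPM, in clones 8 and 1, were 2.54-fold apart. Of the joint TPM of Gpat3 and Gpat4, which leaves out the mitochondrial enzymes, Gpat4 held from 81.5% in clone 1 to 95.2% in clone 8.

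The promoter windows below are shown because Gpat3, Lpin3 and Lpin2 have transcripts with different starts, and the share of each start in the counts is given below. RefSeq (GRCm38.p6) start sites were matched for 5 of the 8 enzymes, Gpat3, Agpat2, Lpin1, Lpin2 and Lpin3, and each window holds the 250 bases before a start. Capitals mark matches to 5 motifs, searched on both strands. The first was the E-box, written CACGTG, which 6.02% of 32851 windows of the same length held. The GC box of many housekeeping promoters, written GGGCGG, was in 32.74% of them. The CCAAT box, named for its letters, was in 33.85%. A TATA box, searched as TATAAA, was in 12.37%, and a motif bound by the sterol regulatory factors, searched as TCACNCCAC, was in 1.05%.
Gpat3, chr5:100845979-100846228, plus strand: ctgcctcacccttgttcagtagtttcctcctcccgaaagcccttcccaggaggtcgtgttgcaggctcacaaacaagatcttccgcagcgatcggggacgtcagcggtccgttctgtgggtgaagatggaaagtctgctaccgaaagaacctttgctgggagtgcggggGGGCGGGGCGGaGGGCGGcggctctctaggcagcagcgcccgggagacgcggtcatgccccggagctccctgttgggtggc
Lpin3 upstream start, chr2:160880420-160880669, plus strand: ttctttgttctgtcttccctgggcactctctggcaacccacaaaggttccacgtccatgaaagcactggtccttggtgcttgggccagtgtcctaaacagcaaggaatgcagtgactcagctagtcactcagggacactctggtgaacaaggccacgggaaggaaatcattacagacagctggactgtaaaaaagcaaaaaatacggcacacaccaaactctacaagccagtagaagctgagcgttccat
Lpin3 downstream start, chr2:160887918-160888167, plus strand: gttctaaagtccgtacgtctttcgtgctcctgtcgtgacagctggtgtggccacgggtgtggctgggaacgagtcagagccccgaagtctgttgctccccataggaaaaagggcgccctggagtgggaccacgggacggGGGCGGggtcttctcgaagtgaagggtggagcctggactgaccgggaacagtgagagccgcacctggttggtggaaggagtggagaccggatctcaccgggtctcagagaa
Lpin2 upstream start, chr17:71183282-71183531, plus strand: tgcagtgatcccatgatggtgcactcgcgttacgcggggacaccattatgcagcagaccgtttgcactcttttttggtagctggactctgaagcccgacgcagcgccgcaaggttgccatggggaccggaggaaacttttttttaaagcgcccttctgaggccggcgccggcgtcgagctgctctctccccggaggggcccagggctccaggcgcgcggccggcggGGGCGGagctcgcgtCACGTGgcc
Lpin2 main start, chr17:71183728-71183977, plus strand: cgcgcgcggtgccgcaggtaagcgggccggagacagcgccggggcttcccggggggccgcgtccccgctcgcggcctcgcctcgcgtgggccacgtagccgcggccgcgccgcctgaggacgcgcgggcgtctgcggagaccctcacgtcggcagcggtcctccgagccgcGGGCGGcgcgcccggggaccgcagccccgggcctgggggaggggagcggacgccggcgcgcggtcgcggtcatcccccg
Lpin2 downstream start, chr17:71204404-71204653, plus strand: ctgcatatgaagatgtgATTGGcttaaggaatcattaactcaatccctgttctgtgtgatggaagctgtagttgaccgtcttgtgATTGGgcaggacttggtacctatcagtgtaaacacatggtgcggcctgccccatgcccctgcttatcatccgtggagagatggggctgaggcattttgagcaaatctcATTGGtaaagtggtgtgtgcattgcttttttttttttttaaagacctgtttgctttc
The Gpat3 window held 3 overlapping or adjacent GC boxes, and 64.0% of its bases were G or C. The downstream Lpin3 window, with 61.6% G or C and 16 CpG, held 1 GC box. The upstream one, with 49.6% and 4 CpG, held none of the 5 motifs. The upstream Lpin2 window, with 65.2% G or C, held 1 GC box and 1 E-box, the only E-box among the windows of the enzymes. The other Lpin2 windows differed in base composition, with 83.2% G or C, 50 CpG and 1 GC box before the main start against 44.8%, 3 CpG and 3 CCAAT boxes, all on the opposite strand, before the downstream start. Such matches are letters in a window and were not tested as binding sites.

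In clone 11, unlike the other 8, the authors' tool assigned most Gpat3 counts to Gpat3-202 and not to Gpat3-201. The transcripts Gpat3-201, Gpat3-202 and Gpat3-203 have the same coding length, 1314 bases, begin at 100846219, 100846364 and 100846130, and differ in their 5′ exons. Gpat3-202 held 81.7% (Wilson interval 75.1 to 86.9) of the 164 Gpat3 counts of clone 11. It held 46.5% in clone 4, 39.6% in clone 13, 35.3% in clone 1, 23.2% in clone 17, 21.7% in clone 14, 16.9% in clone 8 and 16.5% in clone 6, and 0 of 92 counts in clone 10, which allows up to 4.01%. Gpat3-201 was correspondingly at 8.16% in clone 11 and between 53.5 and 100% in the other 8. Gpat3-203 had counts in clone 11 alone, where it held 10.2%. The windows of 31 bases found in 1 of these transcripts and in no other of the gene numbered 29 for Gpat3-201, 181 for Gpat3-202 and 118 for Gpat3-203. The shares rest on the authors' tool dividing reads between transcripts, and the interval does not hold the error of that division. Clones 10 and 11, which lay together over all genes and shared higher sums of the fibroblast and mesoderm markers, were at the opposite ends.

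The next step gives phosphatidate. Agpat2 (chromosome 2, 26593057 to 26604417, minus strand), whose loss causes congenital lipodystrophy in humans, measured 25.9 CPM in clone 1, 16.8 in clone 4, 24.9 in clone 6, 21.1 in clone 8, 15.2 in clone 10, 20.5 in clone 11, 24.0 in clone 13, 17.7 in clone 14 and 23.9 in clone 17. Clones 10, 4 and 14 were low, and these 3 come from 3 different sets of similar clones. The fold from clone 10 to clone 1 was 1.71 (1.42 to 2.05), with an adjusted p of 1.60e-12 by the chi-square test.

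Part of the Agpat2 count came from a transcript without a reading frame. Agpat2-202, annotated as a processed transcript, held 32.3% (27.2 to 37.9, Wilson) of the Agpat2 counts in clone 11, 30.4% in clone 17, 26.4% in clone 6 and 13.6% in clone 8. In the other 5 clones it held at most 3.40%. The coding transcript Agpat2-201 alone ran from 13.4 CPM in clone 11 to 25.3 in clone 1, a 1.89-fold difference, so that the lowest clone was clone 11 and not clone 10. Only 28 windows of 31 bases distinguish Agpat2-202, and none distinguishes Agpat2-201, so the division between them rests on few bases.

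The lipins, the phosphatases that make diacylglycerol, were led by Lpin1. Lpin1 (chromosome 12, 16535669 to 16610966, minus strand), the gene mutated in the fatty liver dystrophy mouse, measured 31.01 CPM in clone 1, 31.3 in clone 4, 26.4 in clone 6, 23.3 in clone 8, 23.4 in clone 10, 22.4 in clone 11, 32.4 in clone 13, 23.5 in clone 14 and 22.3 in clone 17. Clones 1, 4 and 13 were highest, clone 6 came next, and the other 5 were at 23.5 CPM and below. The counting intervals of those 5 clones overlapped each other and that of clone 6, 23.8 to 29.2 CPM. The interval of clone 6 also overlapped that of clone 1, 27.7 to 34.6 CPM. In TPM the order was not the same, with clone 11 at 9.69 and clone 1 at 9.57. From clone 17 to clone 13 the fold was 1.45 (1.25 to 1.68, adjusted p of the chi-square test 9.49e-12), and in TPM it was 1.82.

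Lpin1 is read from several starts and spliced into coding forms of 2772 and 2673 bases. The longer form held the larger share in every clone, from 62.9% (58.0 to 67.7, Wilson) in clone 6 to 78.4% (73.5 to 82.4) in clone 8, and the shorter from 19.9 to 36.3%. The distal start at 16610966, farthest upstream, held 22.9% (18.7 to 27.9) of counts in clone 1 and 59.0% (53.4 to 64.1) in clone 11. The middle start, at 16604113, held 8.32 to 28.9%, and the proximal cluster of starts near 16589770 held 24.0 to 56.0%. Clone 1 and clone 11 thus stood at the ends for the start, but neither for the coding form. In deposited TPM the distal start held 17.8 to 43.2%, with clone 1 again the lowest but clone 6 the highest and clone 11 at 38.5%.

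Lpin2 (chromosome 17, 71182560 to 71249817, plus strand), the lipin mutated in the autoinflammatory Majeed syndrome, was near constant. It measured 15.4 CPM in clone 1, 13.6 in clone 4, 15.7 in clone 6, 15.4 in clone 8, 14.1 in clone 10, 17.2 in clone 11, 16.2 in clone 13, 16.2 in clone 14 and 14.6 in clone 17. No set of clones stood apart. The fold from clone 4 to clone 11, chosen as the extremes, was 1.26 (1.03 to 1.54). The counts of the 9 clones did not pass the chi-square test (adjusted p = 0.382). The interval of the fold still allows a difference of 1.54-fold. Lpin2-204, which begins after the main window printed above, held 76.5 to 90.4% of the counts, and Lpin2-213, which begins after the upstream window at 71183556, held 1.51 to 12.3%. Lpin2-203, after the downstream window, held from 0 to 13.4%, the highest in clone 11, but no window of 31 bases distinguishes it from the other Lpin2 transcripts.

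Lpin3 (chromosome 2, 160880670 to 160906002, plus strand) measured 15.3 CPM in clone 1, 12.9 in clone 4, 14.1 in clone 6, 10.9 in clone 8, 14.1 in clone 10, 15.1 in clone 11, 14.03 in clone 13, 9.55 in clone 14 and 12.1 in clone 17. The lowest 3 were clones 14, 8 and 17. The fold from clone 14 to clone 1 was 1.60 (1.26 to 2.04), and the chi-square test gave an adjusted p of 2.31e-04. Without clones 8, 14 and 17 the range fell from 0.67 to 0.24 and the adjusted p of the same test was 0.709. In TPM the fold was 2.42, but part of this came from a processed transcript of 520 bases without a reading frame. With 11.8 counts it held 41.7% of the Lpin3 TPM in clone 1, against 0.00187% in clone 14. The coding transcripts of these 2 clones therefore differed less in TPM. All TPM values of Lpin3 include this processed transcript. Lpin3-203, the transcript from the upstream window printed above, had no whole count in any clone, although 127 windows of 31 bases are its own. Over all clones Lpin3 had 1578 counts, so a share of up to 0.190% is allowed. The transcripts from the downstream window held 92.4 to 100% of the counts. Within the 3 lipins, Lpin1 held 37.1 to 51.4% of TPM, Lpin2 19.7 to 32.5% and Lpin3 22.1 to 38.6%. Their sum ran from 17.4 TPM in clone 14 to 26.8 in clone 13.

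**Figure D4:**
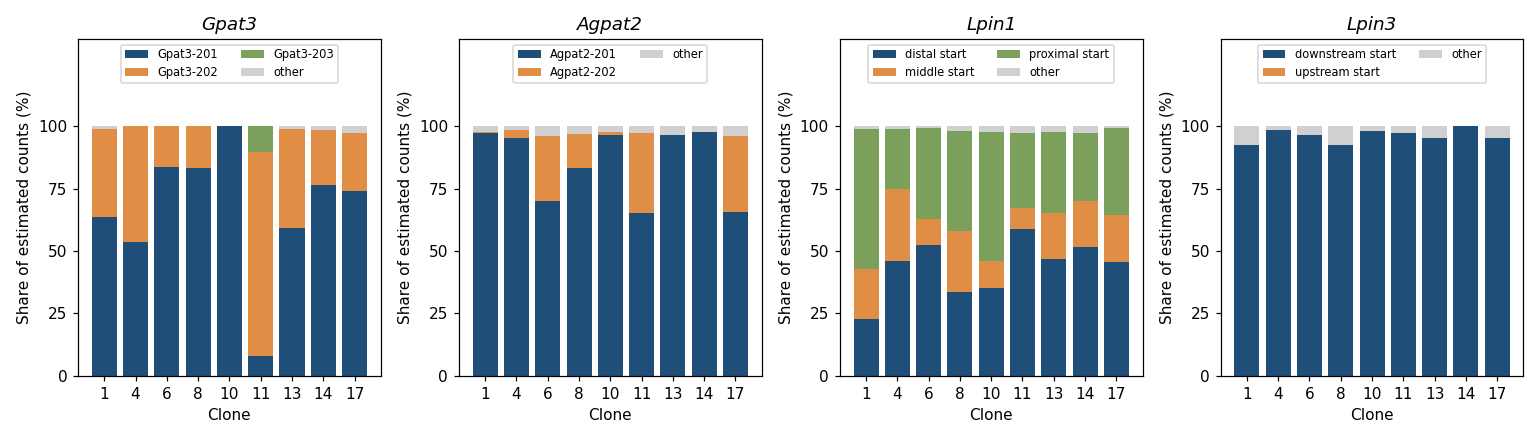
Share of a gene's estimated counts, in percent (vertical axes, stacked bars), that the named transcripts or starts of Gpat3, Agpat2, Lpin1 and Lpin3 held in each clone (horizontal axes), with all other transcripts in grey. Gpat3-202 runs from 0 in clone 10 to 81.7% in clone 11, and the upstream start of Lpin3 is at 0 in every clone.

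The last step, which commits diacylglycerol to storage, is carried by 2 unrelated proteins that behaved differently over the clones. Dgat1 (chromosome 15, 76502015 to 76511953, minus strand), a multipass protein of the endoplasmic reticulum, measured 16.5 CPM in clone 1, 14.6 in clone 4, 13.3 in clone 6, 14.8 in clone 8, 14.3 in clone 10, 15.2 in clone 11, 13.7 in clone 13, 15.9 in clone 14 and 16.2 in clone 17. No set of clones stood apart. The fold from clone 6 to clone 1 was 1.24, and its interval of 1.00 to 1.53 reached equality. The chi-square test did not call it (adjusted p = 0.399), which leaves room for a difference of up to 1.53-fold. Dgat1-201 held 73.2 to 90.0% of the counts.

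Dgat2 (chromosome 7, 99153658 to 99182719, minus strand), which also acts at the surface of lipid droplets, measured 13.6 CPM in clone 1, 8.54 in clone 4, 12.8 in clone 6, 3.14 in clone 8, 6.66 in clone 10, 9.78 in clone 11, 12.5 in clone 13, 4.52 in clone 14 and 3.45 in clone 17. Clones 8, 17 and 14 were below all others, clone 10 came next, and clones 1, 6 and 13 were highest. The counts behind these values were 44 in clone 8 and 139 in clone 1. The fold from clone 8 to clone 1 was 4.32 (3.05 to 6.20), the adjusted p of the chi-square test was 8.49e-42, and 7.27% of all genes had a larger range. Without clones 8, 14 and 17 the range fell from 2.06 to 0.98, and without clone 1 or without clone 8 alone no enzyme reached a range of 2. Dgat2-201 held 97.1 to 100% of the counts in every clone, so the level is that of 1 transcript.

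The balance of Dgat1 and Dgat2 differed between clones. Dgat1 held 61.5% of the joint TPM in clone 13, 61.6% in clone 6, 65.5% in clone 1, 68.1% in clone 4, 71.3% in clone 11 and 75.5% in clone 10. In clones 14, 17 and 8 it held 86.2, 87.7 and 88.5%. These values include Dgat1 transcripts without a reading frame. Dgat1-201 alone held 66.4% of the Dgat1 TPM in clone 13 and 66.7% in clone 6. Dgat2-201 held 94.6 and 100% of the Dgat2 TPM there, so the lead of Dgat1 was smaller on these coding transcripts. The joint TPM of both genes ran from 17.8 in clone 8 to 24.0 in clone 11, so that the sum varied less than Dgat2 did. Plin2, the gene of a droplet coat protein, did not follow the order of Dgat2. Clone 10 had 42.2 CPM of Plin2 and clone 11 had 44.7, against 17.3 to 25.3 elsewhere.

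**Figure D5:**
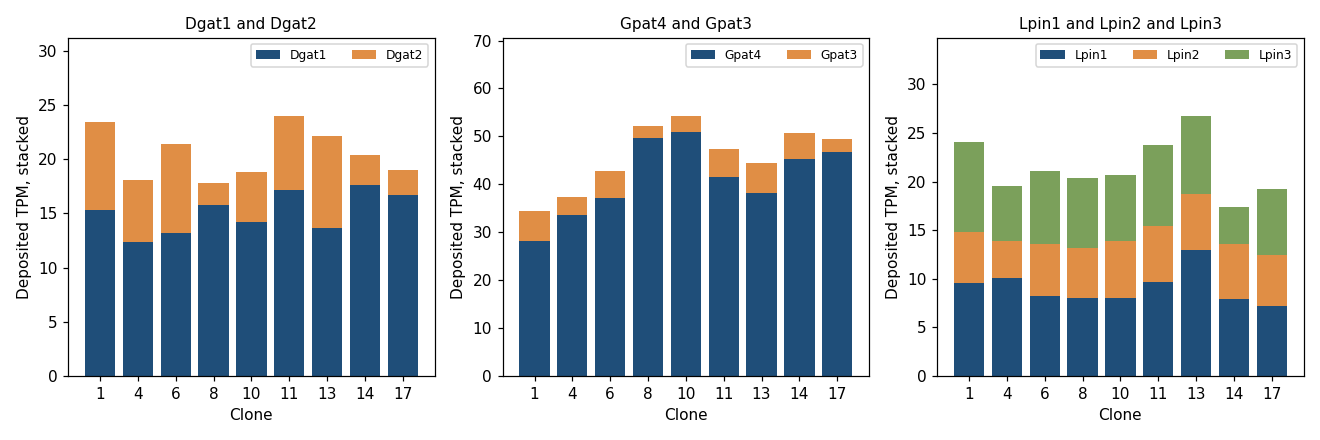
Deposited TPM of Dgat1 and Dgat2, of Gpat4 and Gpat3, and of the 3 lipins (vertical axes, stacked from 0) in each clone (horizontal axes). Gpat4 fills most of its bar in every clone, and Dgat2 takes its smallest part in clones 8, 14 and 17.

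The genes whose levels deviated most like those of Dgat2 over the 9 clones were Ttyh2, Atp2b4 and Slc46a1, among the protein-coding genes tested. Likeness was the mean absolute difference between the deviations of 2 genes from their medians over clones, and it was 0.10, 0.13 and 0.14 log2 units, against a median of 0.70 over genes. Ttyh2 ran from 11.5 CPM in clone 17 to 51.5 in clone 1. Ttyh2 and Slc46a1 lie on chromosome 11, whose tested genes had medians of -0.40, -0.36 and -0.39 log2 units in clones 8, 14 and 17, and the part of the chromosome in their likeness was not tested. For Gpat3 the nearest were Frmpd1 at 0.16, Hip1r at 0.16 and Pm20d1 at 0.18, against a median of 0.48. With the root mean square difference, the 3 genes nearest to Dgat2 were the same and Fgfr2 replaced Hip1r for Gpat3. The likeness is a description of 9 libraries that fall into sets of similar clones.

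A list of other enzymes of the same steps and of related acyltransferases, such as Soat1, included the gene with the largest range of the pathway. Of 14 listed, 12 were tested. Their median range was 0.88, beside 0.78 over all genes, and 5 reached a range of 1 and 1 of them a range of 2, against 35.3% and 7.92% of all genes tested. Gpat2, a mitochondrial acyltransferase known from the germ line, measured 13.3 CPM in clone 1, 12.3 in clone 4, 9.84 in clone 6, 1.43 in clone 8, 4.64 in clone 10, 6.22 in clone 11, 12.2 in clone 13, 0.583 in clone 14 and 1.44 in clone 17. Its highest and lowest clones were clone 1 and clone 14, 22.7-fold apart (11.2 to 53.7), with 8 counts in the lowest. Clones 8, 14 and 17 were again the lowest, as they were for Dgat2. Soat1, which makes cholesteryl esters for droplets, was at 34.4 to 35.6 CPM in those 3 clones and at 50.1 to 80.4 in the other 6. Plpp3, a phosphatase of lipid phosphates at membranes, went the other way, at 27.9 to 34.6 CPM in clones 8, 14 and 17 and at 9.76 to 21.9 in the others. Gpam, the mitochondrial enzyme of the first step, had a range of only 0.44. Agpat5, which lies on chromosome 8 like Gpat4, ran from 48.3 CPM in clone 4 to 105 in clone 14 and 103 in clone 17. Gpam, Agpat1, Agpat3, Agpat4 and Agpat5 were chosen after their values were seen.

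The list named for the supply of glycerol 3-phosphate held 7 genes, of which 5 were tested. Their RNA levels do not measure that supply. The median range of the tested genes was 0.98, beside 0.78 over all genes. A range of 1 was reached by 2 of them and a range of 2 by none, against 35.3% and 7.92% of all genes tested. Aqp3, a channel for water and glycerol, ran from 18.0 CPM in clone 11 to 51.7 in clone 1. Aqp7, another glycerol channel, was low everywhere, from 0.67 to 3.03 CPM. Gpd1l, a relative of the enzyme that makes glycerol 3-phosphate, was lowest in clones 17, 14 and 8 at 35.2 to 39.1 CPM and highest in clone 1 at 69.6. Gpd2 went the other way, at 126 to 157 CPM in clones 8, 14 and 17 and at 83.6 to 112 in the others. Gpd2 was chosen after its values were seen.

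Other genes draw phosphatidate and diacylglycerol into phospholipids or signalling. Of 16 listed, 14 were tested. Their median range was 0.54, beside 0.78 over all genes, and 2 reached a range of 1 and none a range of 2, against 35.3% and 7.92% of all genes tested. Cds1, which turns phosphatidate towards phosphatidylinositol and cardiolipin, ran from 8.40 CPM in clone 10 to 19.1 in clone 13. Among the kinases that return diacylglycerol to phosphatidate, Dgki was at 1.14 to 2.59 CPM and Dgkz at 43.6 in clone 11 to 80.6 in clone 17.

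The list of the lipin phosphatase and of transcription factors of lipid storage held 15 genes, of which 12 were tested. Their median range was 0.90, beside 0.78 over all genes, and 5 reached a range of 1 and 1 of them a range of 2, against 35.3% and 7.92% of all genes tested. The 3 widest were low in level. Cebpa, an adipogenic factor, was at 0.357 to 2.03 CPM, Ppargc1b, a coactivator, at 1.75 to 6.68, and Nr1h3, a sterol receptor, at 0.503 to 1.95. Pparg, the master regulator of adipocytes, did not exceed 0.144 CPM in any clone, under the level of 3 counts. Srebf1, which drives lipid synthesis genes, was at 70.0 to 83.3 CPM in clones 8, 14 and 17 and at 109 to 131 in the other 6. It also lies on chromosome 11. Pparg, Srebf1 and Lep were likewise chosen after their values were seen.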

How the data were processed

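RNA-seq of 9 E14 clones was examined, each as 1 sample, and the labels do not say whether the RNA came from more than 1 culture per clone. The library kit selects mRNA and keeps its strand, per the labels' protocols. Per the submitters' processing notes, CASAVA 1.8, FastQC, Trimmomatic 0.33 and kallisto 0.43.1 were used, with the builds mm10 and GRCm38. The annotation release, like the strand setting of the tool, is not given in the sources used. Per the file headers, each table deposited by the authors gives an estimated count and a TPM value for 115270 transcripts. The tool divides reads between transcripts that share sequence.

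Transcripts were matched by identifier to GENCODE M21 (113580, or 98.53%), and estimated counts and TPM were summed to 35580 genes. Levels were CPM with TMM factors (edgeR 4.0.16, R 4.3.3), log2 with a prior count of 2, for the 13378 genes whose mean reached 1 CPM. Counts were rounded for the chi-square test (scipy 1.17.1), the exact interval of a fold between clones (conditional binomial) and the Wilson interval of a share. The threshold was an adjusted p of 0.05. In each of the 36 pairs of clones, 1595 or more genes differed by more than counting noise, and all 9 tables were kept as separate samples. Steps were checked on simulated data. Alternatives were DESeq2 1.42.0 size factors, other filters, a prior count of 0.5, log2(TPM + 1), protein-coding genes alone, the mean as reference, a window of 5 Mb, and each clone left out. Leaving out clones 10 and 11, or 8, 14 and 17, was added after seeing the data.

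The enzymes and lists were chosen with earlier results of these data known. The text names the 8 enzymes, up to 3 tested genes per pathway list with the largest range and any with a range of 2 or more, the 3 nearest genes of enzymes with a range of 1 or more, marker genes and Plin2. Promoter sequences are from RefSeq.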

Additional observations from a re-analysis of the deposited data

Results flagged for a closer look

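In 41 sets of 9 values, the highest and the lowest clone were examined for an unusual gap to the next clone. A gap was unusual if it took up a part of the range that chance gives in about 1 in 20 sets of normally distributed values. In all, 4 gaps were found. Shares of 1 gene depend on each other and need not be normally distributed, so the number of gaps was not compared with chance. Lpin1 was at 12.996 TPM in clone 13 and at 10.1 in the next clone. Lpin2 was at 3.85 TPM in clone 4 and at 5.10 in the next. In CPM neither clone stood out in this way. The other gaps were both in clone 11, where Gpat3-201 held 8.16% of the Gpat3 counts against 53.5% in the next lowest clone, and Gpat3-203 held 10.2% against 0 in every other clone. Outside the gene values, transcripts that matched no gene held at most 0.773% of the counts of a clone, and they were not analysed further.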

How the results depend on the processing

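No paired analysis was possible because the clones form no groups. Scaling by size factors, the prior count and the restriction to protein-coding genes kept every count of enzymes and of genes within 1.5 times. Of all genes, 11607 of 24909 had a range of 1 or more with no filter and 2420 of 10414 with a minimum of 5 CPM, and 2721 and 355 had a range of 2 or more. As log2(TPM + 1), 424 genes and 0 enzymes had a range of 2 or more. Leaving out each clone gave 0 to 1 enzymes with a range of 2 or more, and it was 0 without clone 1 or clone 8. Without clones 10 and 11, 663 of 13256 genes had a range of 2 or more. Without clones 8, 14 and 17, 3066 of 13453 genes had a range of 1 or more and 534 of 2 or more, and 0 enzymes reached a range of 1 and 0 a range of 2. The cause was not tested. As log2(TPM + 1) the ranges of Lpin3, Gpat4 and Lpin1 were 1.09, 0.83 and 0.78. The value of Lpin3 includes its processed transcript of 520 bases, which held 41.7% of the Lpin3 TPM in clone 1. Shares by transcript moved when taken from TPM, which weights short transcripts more, and Dgat1 held 51.1 to 82.5% of the joint counts of Dgat1 and Dgat2. At 44 to 183 counts per clone, Dgat2 had the widest intervals of the 8 enzymes, together with Gpat3.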
